A study of Mus musculus with 8 samples.

Results

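Haematopoietic stem cells (HSCs) at postnatal day 5 (P5) and at 4 weeks of age were compared for the messenger RNA of 48 genes that carry glucose to pyruvate and lactate, bring pyruvate into the mitochondrion and turn the TCA cycle. The genes were taken by symbol: 4 transporters of glucose and lactate, 10 genes of the hexose phase of glycolysis, 7 of the triose phase and of lactate formation, 12 of pyruvate entry and 15 of the TCA cycle. All 48 were listed among the 22050 genes with an mRNA model, and all 48 were among the 12235 genes with enough reads to be tested.

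Pups at P5 and mice at 4 weeks gave the cells, all of the inbred laboratory strain C57BL/6. Cells were sorted from bone marrow as CD150+ CD48- EPCR+ Lineage-, 100 cells a library, with 4 libraries at each age and no treatment named in the labels. Whether 2 libraries of the same age share an animal is not stated in the labels, so p-values measure the spread between these libraries, which may be technical. In such bulk samples fewer cells of a type and less RNA per cell cannot be told apart.

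Glycolysis splits glucose into pyruvate in the cytosol, with a first phase on hexoses that spends ATP and a later phase on trioses that returns it. Pyruvate is then reduced to lactate, or carried into the mitochondrion, where pyruvate dehydrogenase (PDH) turns it to acetyl-CoA for the TCA cycle. PDH is switched off by PDH kinases and on by PDH phosphatases. Adult HSCs are known for reliance on glycolysis in their low-oxygen niche, with hypoxia-inducible factor and PDH kinases as regulators, while fetal and neonatal HSCs divide more.

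The libraries held 5775130 to 7470777 exon reads, and values are given as normalised exon reads as CPM (counts scaled to a common library size), or as CPM per kb of exon where genes are compared with each other. Slamf1 (CD150) averaged 33.8 CPM at P5 and 36.6 CPM at 4 weeks, Procr (EPCR) 55.0 and 57.1 CPM, and Cd48 4.98 and 5.10 CPM. These 3 belong to a list of 12 sort gate and HSC genes. Of the 11 tested, 3 were higher and 1 lower at P5 (adjusted p under 0.05, edgeR). Over all tested genes, 7.99% were higher and 8.55% lower. The 12 genes summed to 4697 to 5136 CPM at P5 and to 4172 to 4715 CPM at 4 weeks. Reads of Y-linked genes were at 2 and 0 in P5 replicates 1 and 3 and at 1532 to 2293 in the other 6 libraries. The 12 dividing-cell markers summed to 1841, 764, 1611 and 1436 CPM in P5 replicates 1 to 4, and to 1323, 1507, 839 and 895 CPM in 4-week replicates 1 to 4. Of these 12 markers, 1 was called higher at P5 and none lower. The log2 fold change, P5 over 4 weeks, was above 0 for 11 of them, with a median of 0.48. The 11 erythroid markers found summed to 643 to 997 CPM at P5 and to 172 to 256 CPM at 4 weeks, nearly all from the globin gene Hbb-bt. Another of the list, Alas2, was at 0 in all P5 libraries. Of the 4 erythroid markers tested, 1 was called higher and 0 lower at P5, with a median log2 fold change of 0.54. Megakaryocyte markers summed to 120 to 156 CPM at P5 and to 202 to 282 CPM at 4 weeks, with 1 higher and 2 lower of 6 tested. B and T cell markers summed to 62.7 to 78.8 CPM and 36.8 to 46.8 CPM, with 2 higher and 0 lower of 3 tested. Endothelial and stromal markers summed to 177 to 254 CPM and 143 to 213 CPM, with 1 higher and 0 lower of 6 tested. Neutrophil and monocyte markers summed to 188 to 405 CPM at P5, the top value from Csf1r at 158 CPM in replicate 2, and to 180.1 to 205 CPM at 4 weeks. Of the 6 tested among these 12 markers, 3 were called higher and 1 lower at P5. The median log2 fold change of the 6 was 1.02. The 4 calls given next were all kept without P5 replicate 2, and Cs, Eno1, Pfkm and Pgk1 were called as well. The part of these markers in the results was not tested.

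Few genes of the pathway passed the test between the ages when all 8 libraries were used. Of the 48 genes, 1 was higher and 3 were lower at P5 at an adjusted p under 0.05 (edgeR quasi-likelihood test, Benjamini-Hochberg over all genes tested). That is 8.33% of the genes, where 16.5% of all tested genes passed, 7.99% of them as higher and 8.55% as lower. Gapdh was the gene that rose, and Slc2a3, Hk1 and Pfkfb3 were the genes that fell. An unadjusted p under 0.05 was found for 13 of the 48, or 27.1%, beside 29.9% of all tested genes. The 2 ages did not overlap for 6 genes, or 12.5%, beside 21.2% of all tested genes. These were Gpi1, Aldoa and Gapdh with P5 above, and Slc2a3, Hk1 and Pfkfb3 with P5 below. The number of members called moved with single libraries. Without P5 replicate 2, 8 of the 48 were called, beside 1930 genes in all, where all libraries gave 2023. Without 4-week replicate 2, 8 of the 48 were called as well, beside 1974 genes in all. The other fits that left out 1 library called 3 to 5 members.

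The median log2 fold change, P5 over 4 weeks, was 0.04 over the 48 genes and -0.0042 over all tested genes, with 26 of the 48 above 0 and 22 below. The fitted fold change stayed under 1.25 in either direction for 42 of the 48. Among the 44 that did not pass the test, 2 standard errors to either side stayed within 1.5-fold for 37. Levels per kb spanned the pathway widely: lactate dehydrogenase A (Ldha) led with 280.2 ± 8.18 CPM per kb at P5 and 247 ± 46.6 CPM per kb at 4 weeks (SD, n = 4 each), and pyruvate carboxylase (Pcx) was lowest with 0.679 ± 0.257 and 1.09 ± 0.170. The plot of levels by library shows this range, and that the ages overlap at 42 of the 48 genes.

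**Figure D1:**
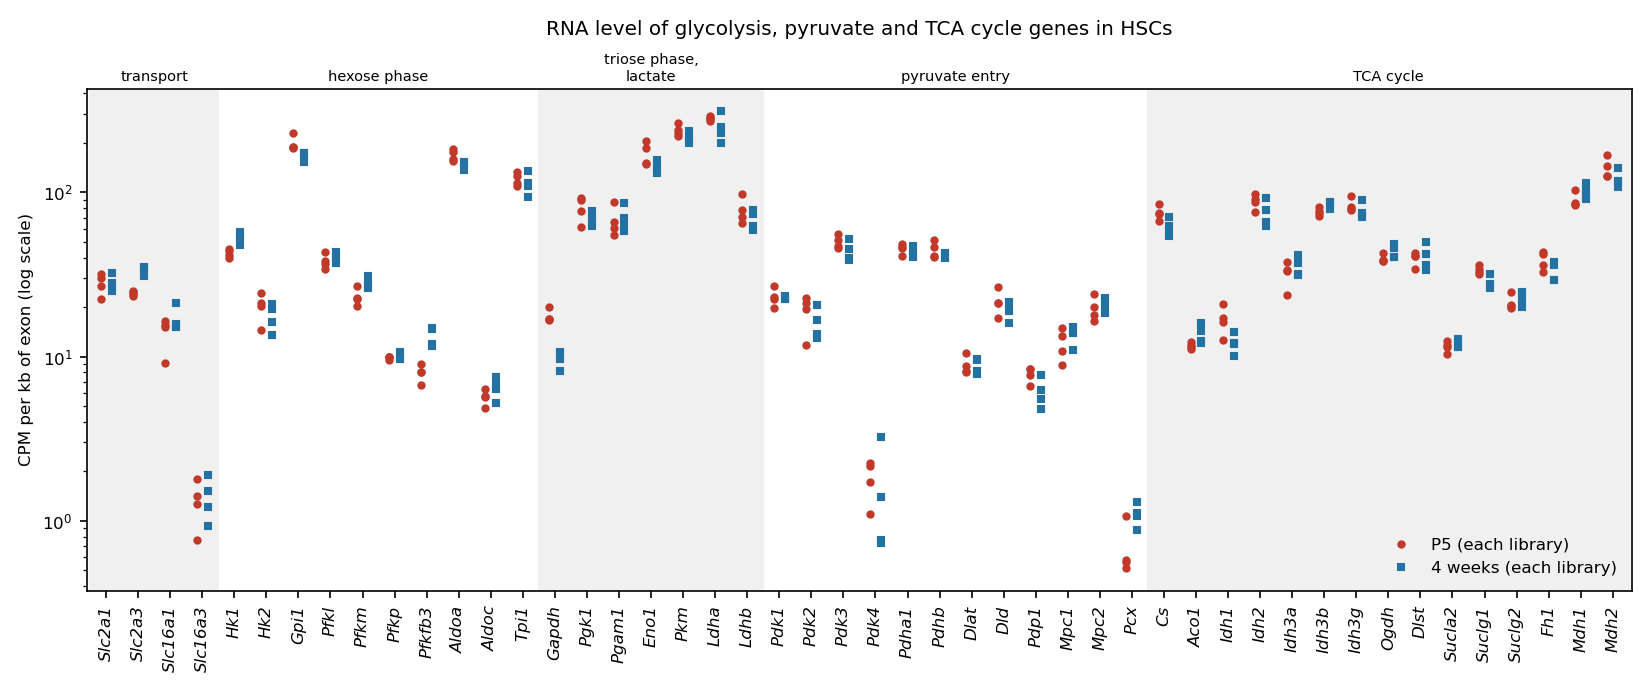
Level of each of the 48 genes in each library, in CPM per kb of exon on a log axis, with P5 libraries (circles) left of 4-week libraries (squares) and genes in pathway order. Ldha, Pkm and Gpi1 lie at the top and Pcx, Slc16a3 and Pdk4 at the bottom, and the ages separate in 6 genes, among them Slc2a3, Hk1, Pfkfb3 and Gapdh.

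By step, all 4 transporters had a negative log2 fold change, with a median of -0.18 and 1 of 4 past the threshold as lower. In the hexose phase 2 of 10 fell and none rose, with a median of -0.06. In the triose phase and lactate formation 1 of 7 rose, 6 of 7 were above 0 and the median was 0.19. None of the 12 genes of pyruvate entry (median 0.09) and none of the 15 of the TCA cycle (median -0.03) passed the threshold, and 1 and 4 of them had an unadjusted p under 0.05.

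**Figure D2:**
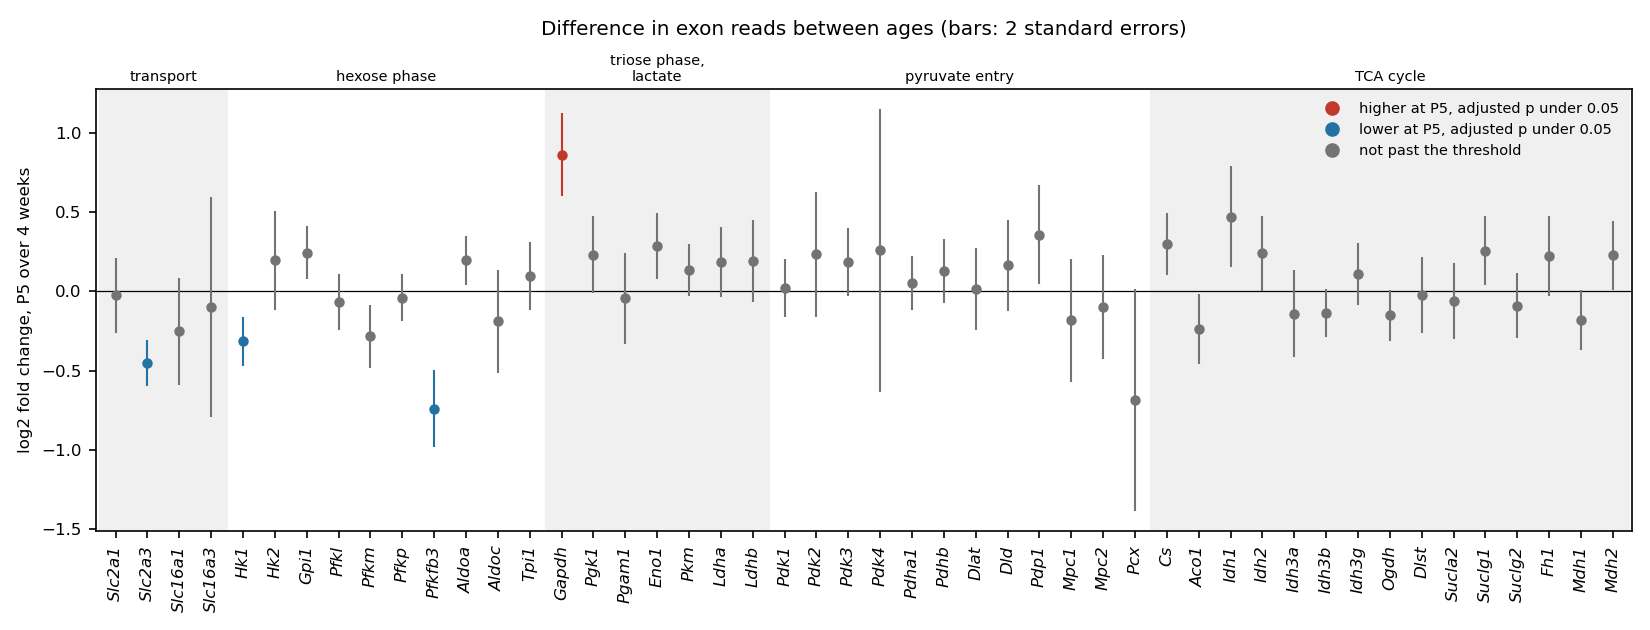
Log2 fold change of exon reads, P5 over 4 weeks, for the 48 genes in pathway order, with bars of 2 standard errors from the edgeR fit. Gapdh (0.86) lies above the rest, and Pfkfb3 (-0.74), Slc2a3 (-0.45) and Hk1 (-0.32) lie below 0 with bars that do not reach it. Bars of some genes that were not called also miss 0, such as Pfkm and Aco1 below it and Gpi1 and Cs above. Pcx lies at -0.68 with a bar that reaches 0, and most others lie within 0.3 of 0.

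Stretches upstream of annotated start sites are given for the called genes whose promoters the RefSeq table holds (build GRCm38.p6), 5′ to 3′ on the gene's own strand, because the core of the hypoxia response element was searched in them. Capitals mark that core, ACGTG or GCGTG, on either strand. Each stretch is the 250 bases before a start, ended where GENCODE M21 places an exon of the gene. Those of Pfkfb3, Gapdh and the second Hk1 start lie at starts inside the gene's RefSeq span. The outer Pfkfb3 start left 102 bases with no match and is not shown.
Pfkfb3, chr2:11502102-11502340, minus strand: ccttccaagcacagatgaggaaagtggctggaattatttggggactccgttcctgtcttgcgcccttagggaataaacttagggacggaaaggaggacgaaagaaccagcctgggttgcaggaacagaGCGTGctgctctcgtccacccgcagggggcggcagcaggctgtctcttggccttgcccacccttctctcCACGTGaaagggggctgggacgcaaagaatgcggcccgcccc
Hk1, chr10:62379909-62380158, minus strand: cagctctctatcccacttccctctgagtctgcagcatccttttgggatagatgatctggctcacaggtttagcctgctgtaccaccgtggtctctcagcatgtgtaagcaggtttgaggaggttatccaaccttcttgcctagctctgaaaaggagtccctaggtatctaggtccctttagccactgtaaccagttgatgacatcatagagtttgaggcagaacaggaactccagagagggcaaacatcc
Hk1, chr10:62340543-62340671, minus strand: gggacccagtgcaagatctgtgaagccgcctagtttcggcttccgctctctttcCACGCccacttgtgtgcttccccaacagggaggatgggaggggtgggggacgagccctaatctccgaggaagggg
Gapdh, chr6:125165774-125166023, minus strand: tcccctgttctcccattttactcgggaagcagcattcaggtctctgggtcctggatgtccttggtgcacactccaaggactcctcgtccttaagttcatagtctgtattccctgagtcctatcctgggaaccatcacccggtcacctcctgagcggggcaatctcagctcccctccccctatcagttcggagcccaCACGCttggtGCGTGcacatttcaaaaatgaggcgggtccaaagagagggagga
The Pfkfb3 stretch held 3 matches, of which a pair is the palindrome that reads as the core on both strands. The Gapdh stretch held 2, the first Hk1 stretch none and the second 1. Over untrimmed windows of 250 bases, 35 of the 45 members with a promoter in the table (77.8%) had a match in at least 1 window, against 41.5% of all 27025 genes in the table and 61.6% of the 9293 tested genes in it. A match describes these letters and is not a binding site.

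Glucose enters through Slc2a1 (GLUT1) and Slc2a3 (GLUT3), a transporter with high affinity for glucose. Slc2a3 (chr6:122727809-122802363) fell at P5: its 4 P5 libraries had 113, 117, 111 and 119 CPM, against 156, 147, 166 and 161 CPM in the 4-week libraries. Every P5 library lay below every 4-week library, with 115 ± 3.64 CPM at P5 and 157 ± 8.10 CPM at 4 weeks (SD, n = 4 each). The log2 fold change was -0.45 with a standard error of 0.0730 (adjusted p = 0.000874, edgeR). All its exon reads were unique, and the call held when any library was left out and within the libraries that carry Y-linked reads.

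Slc2a1 had 80.3, 60.3, 72.2 and 85.2 CPM in the P5 libraries and 74.6, 86.5, 67.0 and 75.6 CPM in the 4-week libraries. The ages overlapped throughout, and the log2 fold change was -0.03 with a standard error of 0.119 (adjusted p = 0.915, edgeR). Lactate and pyruvate cross the membrane through the monocarboxylate transporters. Slc16a1 (MCT1) had 69.0, 40.7, 72.9 and 67.3 CPM at P5 and 67.6, 93.6, 67.3 and 69.4 CPM at 4 weeks, alike but for a low P5 replicate 2 and a high 4-week replicate 2. Slc16a3 (MCT4), the exporter of strongly glycolytic cells, was scarce at both ages, with 2.73, 6.37, 5.01 and 4.51 CPM at P5 and 3.32, 4.31, 5.38 and 6.79 CPM at 4 weeks. Neither difference passed the test.

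Hexokinases trap glucose by phosphorylation. Hk1 (chr10:62268855-62379920), which sits on mitochondria, was the most abundant of them and fell at P5, with 239.8, 222, 213 and 233 CPM in the P5 libraries against 285, 255, 285 and 305 CPM in the 4-week libraries. The ages did not overlap, and the mean was 227 ± 12.1 CPM at P5 and 283 ± 20.5 CPM at 4 weeks (SD, n = 4 each). The log2 fold change was -0.32 with a standard error of 0.0767 (adjusted p = 0.0120, edgeR). Without 4-week replicate 4 the log2 fold change was -0.28 and the adjusted p 0.0575 (edgeR), and among the 6 libraries with Y-linked reads they were -0.31 and 0.0584. Hk2, the inducible form, had 117, 80.2, 111 and 134 CPM at P5 and 89.1, 115, 74.7 and 108 CPM at 4 weeks, and the libraries of the 2 ages were mixed in order.

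Pfkfb3 makes the sugar bisphosphate that activates phosphofructokinase, and so sets the pace of the committed step. It fell at P5 (chr2:11471430-11554071): the P5 libraries had 41.7, 56.0, 49.9 and 49.6 CPM and the 4-week libraries 71.9, 91.3, 92.0 and 74.1 CPM. The highest P5 library lay well below the lowest 4-week library, and the means were 49.3 ± 5.84 CPM at P5 and 82.3 ± 10.8 CPM at 4 weeks (SD, n = 4 each). The log2 fold change was -0.74 with a standard error of 0.121 (adjusted p = 0.000957, edgeR), and the call held when any library was left out. In reads over exon junctions alone, which are far fewer, it was -0.45 (adjusted p = 0.172, edgeR).

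The enzymes of the hexose phase that do the bulk work did not pass the threshold. Glucose phosphate isomerase (Gpi1) had 658, 544, 539 and 542 CPM at P5 and 443, 502, 482 and 501 CPM at 4 weeks. All P5 libraries lay above, with replicate 1 far over the other 3, and the log2 fold change was 0.24 (adjusted p = 0.0636, edgeR). Aldolase A (Aldoa) likewise separated, with 398, 380.3, 337 and 345 CPM at P5 and 324, 295, 327 and 331 CPM at 4 weeks, at a log2 fold change of 0.19 (adjusted p = 0.109, edgeR). Both had an unadjusted p under 0.05 only. Aldoc, a form known from brain, was far scarcer, with 16.2, 18.3, 14.1 and 16.5 CPM at P5 and 18.2, 14.99, 21.5 and 19.5 CPM at 4 weeks.

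Among the phosphofructokinase subunits, Pfkm, the muscle form, had 75.7, 91.4, 69.0 and 77.3 CPM at P5 and 94.0, 93.2, 89.0 and 105 CPM at 4 weeks. Only P5 replicate 2 reached into the 4-week range, and the log2 fold change was -0.29 (adjusted p = 0.0705, edgeR). Without that library it was -0.37 (adjusted p = 0.0199, edgeR). Pfkl, the liver form, had 162, 143, 127 and 136 CPM at P5 and 149, 161, 138 and 147 CPM at 4 weeks, with P5 libraries both highest and lowest. Pfkp, the platelet form, was nearly even, with 107, 111, 112 and 111 CPM at P5 and 119, 114, 109 and 111 CPM at 4 weeks. Triose phosphate isomerase (Tpi1), which joins the branches after aldolase, averaged 193 ± 17.7 and 180.3 ± 27.5 CPM.

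Gapdh (chr6:125161852-125166467), which oxidises the triose and is widely used to normalise other genes, showed the largest fold change of the 48. Its P5 libraries had 45.3, 38.4, 37.5 and 38.2 CPM, against 18.3, 21.7, 23.6 and 24.1 CPM in the 4-week libraries. The ages did not overlap, at 39.8 ± 3.63 CPM at P5 and 21.9 ± 2.61 CPM at 4 weeks (SD, n = 4 each). The log2 fold change was 0.86 with a standard error of 0.131 (adjusted p = 0.000582, edgeR), and it held when any library was left out.

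The call rested on reads that map to more than 1 place. Of the 1082 exon reads at P5 and 556 at 4 weeks, 288 and 204 were unique, which is 30.0% over all libraries. Unique exon reads gave 10.9, 8.86, 12.6 and 10.3 CPM at P5 and 9.48, 7.24, 7.07 and 8.31 at 4 weeks, and the ages overlapped. In them the log2 fold change was 0.41 (adjusted p = 0.209, edgeR). It was 0.66 in junction reads (adjusted p = 0.104, edgeR), which span introns that processed pseudogenes lack, 0.62 in unique junction reads (adjusted p = 0.174), and 0.55 in intron reads (adjusted p = 0.0728).

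A search of GENCODE M21 transcripts found 149 Gapdh pseudogenes with at least 90% identity over at least 300 bases, of which 136 were listed in the files. They held 1158 reads in the P5 libraries and 1124 in the 4-week libraries. Gapdh itself held 1082 and 556 exon reads, and 1430 and 1008 intron reads. For its step Gapdh was listed low, at 17.6 ± 1.61 CPM per kb at P5 and 9.71 ± 1.15 at 4 weeks, beside 173 ± 27.1 and 142 ± 10.5 for Eno1. Its log2 fold change was above 0 in each of the 23 settings tried, from 0.41 to 0.91, and its call was lost in the 4 read classes named and at a required log2 fold change of 1.

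**Figure D3:**
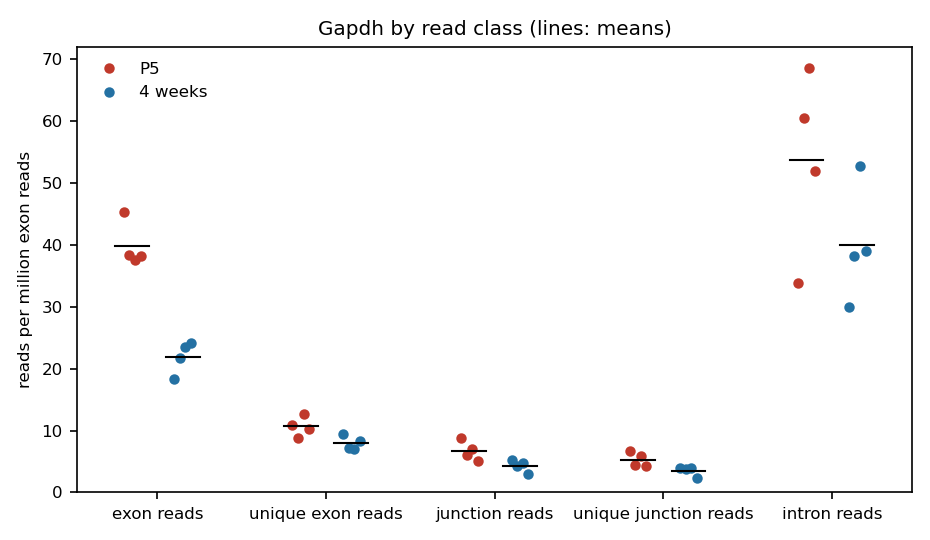
Gapdh reads in each library by class, in CPM scaled to normalised exon reads, with P5 left of 4 weeks in each pair and lines at the means. Total exon reads separate the ages widely (39.8 and 21.9 on average) and unique junction reads narrowly (4.23 to 6.68 at P5 and 2.35 to 3.95 at 4 weeks), whereas unique exon reads, junction reads and intron reads overlap between them.

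Copies touched much of this step. At least 1 pseudogene copy was found for 14 of the 48 genes, and the median share of unique exon reads was 67.0% in them and 100.0% in the other 34. Unique reads made up 3.05% for Pgk1, 5.96% for Pgam1, 17.7% for Eno1 and, with no copy found, 13.6% for Mpc1. The levels of Pgk1, Pgam1 and Eno1 are thus uncertain between the gene and its copies. Unlike for Gapdh, few reads were listed on the copies. At P5 and 4 weeks they held 40 and 32 for Pgk1 (gene 3988 and 3152). For Pgam1 they held 33 and 28 (gene 3364 and 3210), and for Eno1 84 and 100 (gene 9054 and 6883). How reads with several places were assigned is not known. The libraries do not mark strand, so any antisense reads are counted in the reads of a gene too.

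Enolase (Eno1) had 391.9, 287, 289 and 359 CPM at P5 and 253, 299.9, 262 and 275 CPM at 4 weeks, with 2 P5 libraries below the highest 4-week library. Its log2 fold change was 0.28 (adjusted p = 0.0822, edgeR). Phosphoglycerate kinase (Pgk1), the first enzyme to return ATP, averaged 146 ± 25.8 CPM at P5 and 125 ± 12 CPM at 4 weeks, and the mutase Pgam1 123 ± 25.4 and 127 ± 22.5 CPM (SD, n = 4 each). Without P5 replicate 2 the log2 fold change was 0.35 for Eno1 and 0.34 for Pgk1 (adjusted p = 0.0373 and 0.0316, edgeR). Pyruvate kinase (Pkm) ended the pathway with 769, 644, 674 and 701 CPM at P5 and 612, 696, 588 and 646 CPM at 4 weeks, an overlapping set with a log2 fold change of 0.13 (adjusted p = 0.295, edgeR).

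Ldha, which reduces pyruvate to lactate, had 559, 521, 544 and 540.0 CPM in the P5 libraries and 385, 598, 443 and 478 CPM in the 4-week libraries. The P5 libraries lay close together and inside the wide range of the 4-week libraries, whose replicate 2 was the highest of all 8. The log2 fold change was 0.18 (adjusted p = 0.290, edgeR), and without 4-week replicate 2 it was 0.32 (adjusted p = 0.0208, edgeR). Ldhb, which favours the return to pyruvate, had 127, 102, 92.0 and 84.2 CPM at P5 and 81.2, 76.3, 101 and 95.9 CPM at 4 weeks, and only P5 replicates 1 and 2 lay above all 4-week libraries.

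At the entry of pyruvate, no gene passed the threshold. The carrier subunits Mpc1 and Mpc2 averaged 13.9 ± 3.11 and 16.7 ± 2.83 CPM at P5 and 15.8 ± 2.12 and 17.9 ± 1.58 CPM at 4 weeks (SD, n = 4 each). The PDH subunits Pdha1, Pdhb, Dlat and Dld had log2 fold changes between 0.01 and 0.16. Per kb, Pdk3 was the most abundant gene of this step, at 49.9 ± 4.66 at P5 and 43.9 ± 5.93 at 4 weeks.

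The PDH phosphatase Pdp1, which switches PDH on, had 33.8, 37.0, 36.8 and 29.1 CPM at P5 and 21.01, 33.9, 27.6 and 24.4 CPM at 4 weeks. Only 4-week replicate 2 reached into the P5 range, and the log2 fold change was 0.36 (adjusted p = 0.143, edgeR). Without that library it was 0.50 (adjusted p = 0.0359, edgeR). The kinases Pdk1, Pdk2, Pdk3 and Pdk4 had log2 fold changes of 0.02, 0.23, 0.19 and 0.26, and all 4 overlapped between the ages. Pdk1, a target of hypoxia-inducible factor, had 142, 166, 138 and 121 CPM at P5 and 137, 141, 137 and 144 CPM at 4 weeks. Pdk2 had 48.5, 51.8, 44.3 and 27.1 CPM at P5 and 38.4, 31.2, 46.9 and 29.6 CPM at 4 weeks. P5 replicate 4 was the lowest of all 8 libraries for Pdk2, and the other P5 libraries lay among or just above those of 4 weeks. Pdk3 had 112, 91.7, 93.6 and 102 CPM at P5 and 80.1, 103, 77.1 and 90.9 CPM at 4 weeks, where replicate 2 reached the P5 range. Pdk4, a kinase of fasting and fat oxidation, was scarce, with 7.77, 7.46, 5.98 and 3.81 CPM at P5 and 2.53, 4.82, 11.1 and 2.63 CPM at 4 weeks. Pcx, which feeds the cycle with oxaloacetate, averaged 2.98 ± 1.13 CPM at P5 and 4.79 ± 0.746 CPM at 4 weeks.

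In the TCA cycle, citrate synthase (Cs), the entry enzyme, came nearest to the threshold. It had 241, 189, 210.0 and 211 CPM at P5 and 165, 201, 175 and 154 CPM at 4 weeks. P5 replicate 2 fell below 4-week replicate 2, and the log2 fold change was 0.30 with a standard error of 0.0976 (adjusted p = 0.0548, edgeR). Without P5 replicate 2 it was 0.35 (adjusted p = 0.0296, edgeR) and without 4-week replicate 2 it was 0.39 (adjusted p = 0.0144, edgeR).

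Cytosolic isocitrate dehydrogenase (Idh1), which makes NADPH, had 50.9, 39.6, 41.9 and 30.9 CPM at P5 and 34.6, 29.6, 24.4 and 29.1 CPM at 4 weeks. P5 replicate 4 lay among the 4-week libraries, and the log2 fold change was 0.47 (adjusted p = 0.0610, edgeR). Without that library it was 0.58 (adjusted p = 0.0236, edgeR). Cytosolic aconitase (Aco1), also an iron sensor, had 48.1, 50.7, 53.2 and 49.5 CPM at P5 and 54.0, 52.6, 68.8 and 62.1 CPM at 4 weeks, at a log2 fold change of -0.24 (adjusted p = 0.167, edgeR). The succinyl-CoA ligase alpha subunit (Suclg1) had 50.4, 45.5, 47.7 and 44.1 CPM at P5 and 36.2, 37.9, 38.7 and 44.3 CPM at 4 weeks. The ages overlapped for Suclg1 only through 4-week replicate 4, at a log2 fold change of 0.26 (adjusted p = 0.135, edgeR).

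The subunits of NAD isocitrate dehydrogenase did not share a direction. Idh3a and Idh3b each had a log2 fold change of -0.14, and Idh3g 0.11. The oxoglutarate dehydrogenase genes Ogdh and Dlst had -0.15 and -0.03, and fumarase (Fh1) 0.22. Mitochondrial isocitrate dehydrogenase (Idh2) had 228, 177.5, 212 and 203 CPM at P5 and 145, 215, 154 and 181 CPM at 4 weeks, with replicate 2 low at P5 and high at 4 weeks. None of these passed the test with all libraries. Without 4-week replicate 2 the log2 fold change of Idh2 was 0.37 (adjusted p = 0.0304, edgeR).

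Mitochondrial malate dehydrogenase (Mdh2) was the most abundant gene of the cycle per kb. It had 215, 160.1, 161 and 186 CPM at P5 and 149, 180.3, 150.4 and 138 CPM at 4 weeks, while the cytosolic Mdh1 had 202, 165, 167 and 165 CPM at P5 and 191, 224, 179 and 199.9 CPM at 4 weeks. The log2 fold changes were 0.23 and -0.18, of opposite sign and both short of the threshold (adjusted p = 0.184 and 0.212, edgeR). The beta subunits of succinyl-CoA ligase were close between the ages: Sucla2, which makes ATP, had 24.1 to 28.7 CPM at P5 and 26.7 to 29.9 CPM at 4 weeks, and Suclg2, which makes GTP, 74.6 to 93.5 CPM and 76.2 to 94.3 CPM.

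Choice among isozymes was followed as each gene's share of its family's reads per kb in every library, in 10 families with 15 shares. No share passed after adjustment (two-sided exact permutation tests over 70 splits, 0 of 15 with an adjusted p under 0.05 and 2 of 15 with an unadjusted p under 0.05). The smallest p that 4 against 4 libraries can give is 0.0286, which adjusts to 0.214 here. A single share at that value cannot pass, so the absence of calls does not show that the shares are equal. Mdh2 and Aldoc reached the smallest p.

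Mdh2, the mitochondrial malate dehydrogenase, made up 61.8, 59.8, 59.6 and 63.2% of malate dehydrogenase reads per kb at P5 and 54.4, 55.1, 56.2 and 51.3% at 4 weeks, with the cytosolic Mdh1 as the rest. All P5 libraries lay above all 4-week libraries, a difference of 6.82 percentage points (exact permutation p = 0.0286, adjusted p = 0.214). Aldoc, the minor aldolase, took 3.26 ± 0.278% in P5 libraries and 4.19 ± 0.433% in 4-week libraries (SD, n = 4 each), and the ages did not overlap.

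Slc2a3 took 44.5, 52.5, 46.5 and 44.2% of the Slc2a1 and Slc2a3 reads per kb at P5 and 54.4, 49.1, 58.4 and 54.7% at 4 weeks. The majority thus lay with Slc2a1 in 3 of 4 P5 libraries and with Slc2a3 in 3 of 4 4-week libraries, at an exact permutation p of 0.0571 (adjusted p = 0.214). Hk2 took 32.0, 25.9, 33.6 and 35.7% of the Hk1 and Hk2 reads per kb at P5 and 23.2, 30.3, 20.2 and 25.5% at 4 weeks, with P5 replicate 2 inside the 4-week range, at the same p. The ages overlapped in the other families: Pfkl led the phosphofructokinases with 53.6 ± 2.89% at P5 and 51.2 ± 1.81% at 4 weeks, and Pdk3 the PDH kinases with 53.6 ± 5.85% and 52.1 ± 5.31%. Ldhb took 21.6 ± 2.81% and 21.9 ± 4.15%, Idh2 84.0 ± 2.30% and 85.8 ± 3.02%, and Suclg2 64.9 ± 2.75% and 65.3 ± 3.14%.

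**Figure D4:**
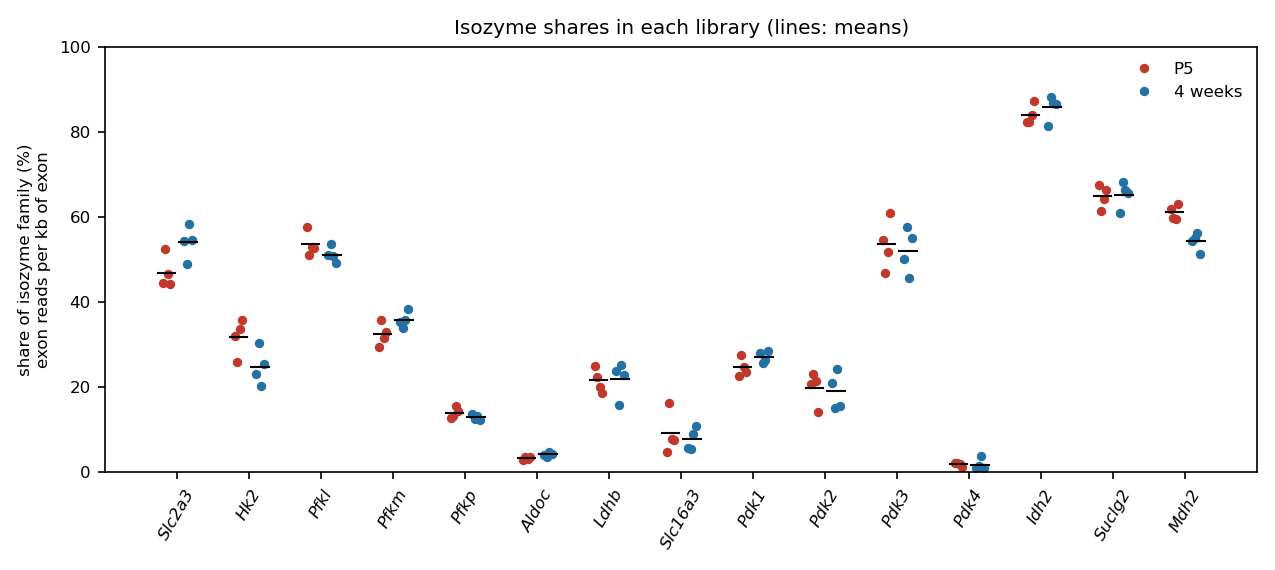
Share of each gene in its isozyme family, in percent of exon reads per kb, in each library, with P5 left of 4 weeks and lines at the means. Mdh2 separates the ages (61.1% at P5 and 54.3% at 4 weeks on average), as does Aldoc at a low share (3.26% and 4.19%), and Slc2a3, Hk2 and the other shares overlap between the ages.

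Reads in introns can come from RNA not yet spliced, and they made up 60.1% of gene reads in P5 replicate 1 and 66.8 to 68.7% in the other libraries. Of the 46 members with enough intron reads, 3 were higher and 5 lower at P5 (edgeR over 13180 genes, of which 9.01% were higher and 8.86% lower). Higher were Slc2a1, Pfkp and Pdk3, and lower were Pfkfb3, Dlat, Sucla2, Suclg1 and Mdh1. Pfkfb3 was the single member called in both read classes, with an intron log2 fold change of -0.65 (adjusted p = 0.00498, edgeR). The lncRNA genes Gm52500 and Gm10851 overlap Pfkfb3, and strand was not recorded. Slc2a3 (-0.37, adjusted p = 0.181) and Hk1 (-0.23, adjusted p = 0.0829) had the same sign in introns and did not pass.

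Exon and intron reads were then set against each other in 1 edgeR model with a term for each library. The age difference of exon reads differed from that of intron reads for 7 of 46 members, beside 6.38% of the 11399 genes in that model (3.32% with the exon difference above and 3.06% with it below). For Slc2a1, Pfkp and Pdk3 the intron difference was above the exon difference, and for Aldoa, Dlat, Suclg1 and Mdh1 it was below. Slc2a1, Pfkp and Suclg1 kept this call when any library was left out, and Slc2a1 and Suclg1 also among the 6 libraries with Y-linked reads.

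Slc2a1 showed the clearest split. Its introns had 85.4, 70.1, 67.5 and 74.7 intron CPM at P5 and 41.6, 45.3, 34.7 and 46.0 intron CPM at 4 weeks, with no overlap, a log2 fold change of 0.83 and a standard error of 0.128 (adjusted p = 0.00119, edgeR). The exon minus intron difference was -0.86 (adjusted p = 0.00117, edgeR). In uniquely placed intron reads the log2 fold change was 1.03. The lncRNA gene Gm12867 lies inside Slc2a1, and strand was not recorded, so its reads cannot be told apart from those of Slc2a1. Another, Gm52706, ends at chr4:119108749 and only touches the start of Slc2a1 at chr4:119108745. The stretch before the Slc2a1 start (build GRCm38.p6), shown for comparison with those of the called genes and again with the hypoxia response core in capitals, held 1 match.
Slc2a1, chr4:119108495-119108710, plus strand: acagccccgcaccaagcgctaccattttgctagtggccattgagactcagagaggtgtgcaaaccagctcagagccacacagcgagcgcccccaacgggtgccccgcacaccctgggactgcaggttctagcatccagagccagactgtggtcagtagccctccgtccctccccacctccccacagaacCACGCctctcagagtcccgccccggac

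Suclg1 split the other way. Its introns had 29.3, 28.5, 25.6 and 19.2 intron CPM at P5 and 41.7, 41.6, 40.7 and 39.4 intron CPM at 4 weeks, while its exon reads leaned higher at P5. The intron log2 fold change was -0.67 (adjusted p = 0.00875) and the exon minus intron difference 0.94 (adjusted p = 0.00316, edgeR). In uniquely placed intron reads the log2 fold change was -0.55 (adjusted p = 0.0295, edgeR). The lncRNA gene Gm38834 lies inside Suclg1, and without strand its reads cannot be told apart from those of Suclg1. The PDH kinase gene Pdk3 had 248, 211, 228 and 196 intron CPM at P5 and 131, 149, 131 and 136 at 4 weeks, a log2 fold change of 0.69 (adjusted p = 0.000509, edgeR), with exons at 0.19. Its exon minus intron difference of -0.50 lost its call without 4-week replicate 4 (adjusted p = 0.0543, edgeR). The lncRNA gene Gm46689 lies inside Pdk3, with the same limit on its reads. For Pfkp the intron log2 fold change of 0.64 (adjusted p = 0.0202, edgeR) was 0.46 in uniquely placed reads (adjusted p = 0.0641), and the neighbouring gene Pitrm1 overlaps its end. Aldoa, Dlat and Mdh1 lost the call in at least 5 of the 8 fits that left out a library.

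**Figure D5:**
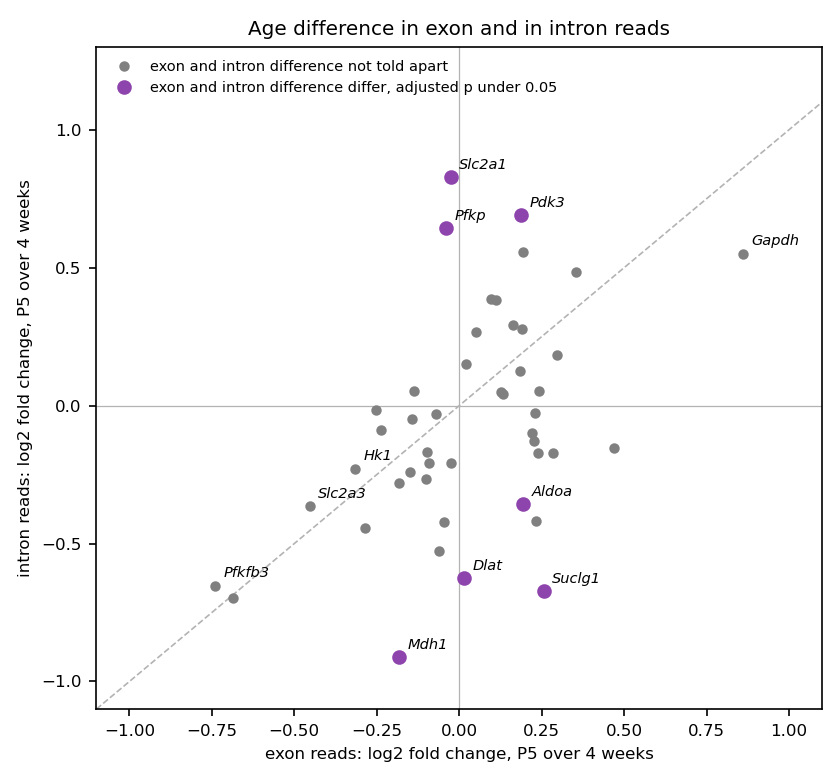
Log2 fold change, P5 over 4 weeks, of intron reads (vertical) against exon reads (horizontal) for 46 members, with the line of equality dashed. The 7 filled larger points are members whose exon and intron differences differ: Slc2a1, Pfkp and Pdk3 lie above the line and Aldoa, Dlat, Suclg1 and Mdh1 below it, while Pfkfb3, Slc2a3 and Hk1 lie near it.

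Single genes of the same pathways outside the 48 had larger fold changes than any of the 48. Of 22 tested among 31 other glycolysis genes, 1 rose and 4 fell, beside 7.99% and 8.55% of all tested genes. Hk3, a hexokinase of myeloid cells, had 4.77, 11.97, 5.01 and 7.61 CPM at P5 and 49.5, 25.7, 51.7 and 51.1 CPM at 4 weeks, a log2 fold change of -2.60 (adjusted p = 4.2e-05, edgeR). Every P5 library lay below every 4-week library for Hk3, as for Hk1.

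Pfkfb2, the relative of Pfkfb3 known from heart, had 46.1, 62.0, 56.7 and 52.9 CPM at P5 and 88.0, 95.5, 106 and 95.7 CPM at 4 weeks, also with no overlap (log2 fold change -0.82, adjusted p = 0.000152, edgeR). Pfkfb4 had an unadjusted p under 0.05 in the other direction, with a log2 fold change of 0.38 (adjusted p = 0.153, edgeR). Ldhd, which oxidises the D form of lactate, fell to 12.02 ± 5.24 CPM at P5, against 28.0 ± 4.94 CPM at 4 weeks, and the gluconeogenic Fbp1 to 2.99 ± 0.812, against 6.41 ± 1.86 CPM (SD, n = 4 each).

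None of the 10 pentose phosphate genes passed. The one with the smallest p was transketolase (Tkt), with a log2 fold change of 0.21 (adjusted p = 0.135, edgeR), and 2 had an unadjusted p under 0.05. Of 28 tested among 31 other pyruvate, TCA cycle and anaplerosis genes, 2 rose and 1 fell, beside 7.99% and 8.55% of all tested genes. Ogdhl, a relative of Ogdh, rose with 3.87 ± 1.35 CPM at P5 and 1.02 ± 0.381 CPM at 4 weeks, and glutamate dehydrogenase (Glud1) with 191 ± 14.7 and 160.3 ± 9.82 CPM. Malic enzyme Me1, which makes cytosolic NADPH, fell to 1.06 ± 0.722 CPM at P5, against 5.12 ± 1.40 CPM at 4 weeks (SD, n = 4 each).

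Of 21 tested among 24 hypoxia-inducible factor genes and targets, 4 rose and 2 fell, beside 7.99% and 8.55% of all tested genes. Egln3, a prolyl hydroxylase that marks the factor for decay and is itself a target, had 39.4, 32.6, 42.2 and 41.0 CPM at P5 and 14.1, 10.3, 14.1 and 12.9 CPM at 4 weeks, a log2 fold change of 1.59 (adjusted p = 9.6e-06, edgeR). Hif3a, Vegfa and Mxi1 rose with log2 fold changes of 0.98, 0.70 and 0.38, and P4ha1 and Ndrg1 fell with -0.46 and -1.07. Targets of this factor thus went both ways. The median of the list was 0.08, beside -0.0042 over all tested genes.

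Of 20 tested among 21 other metabolic regulators, 2 rose and 3 fell, beside 7.99% and 8.55% of all tested genes. Myc, a driver of glycolytic genes in many cells, had 97.2, 65.4, 81.5 and 113 CPM at P5 and 127, 123, 146 and 162 CPM at 4 weeks, a log2 fold change of -0.64 (adjusted p = 0.00804, edgeR). Prkaa2, a catalytic subunit of the energy sensor AMPK, had 6.54, 8.86, 5.98 and 6.49 CPM at P5 and 22.1, 23.4, 24.2 and 22.3 CPM at 4 weeks (log2 fold change -1.72, adjusted p = 1.79e-05, edgeR). Sirt3, a mitochondrial deacetylase, fell with a log2 fold change of -0.41, and the coactivator Ppargc1b (0.34) and the DNA methyltransferase Dnmt3a (0.64) rose.

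Within an age some libraries stood high or low for many members. P5 replicate 1 was the highest of its 4 libraries for 29 of the 48 genes (60.4%, beside 28.0% of all tested genes) and the lowest for 4, while P5 replicate 2 was the lowest for 22 (45.8%, beside 26.2%) and the highest for 9. At 4 weeks replicate 2 was the highest for 26 (54.2%, beside 30.9%) and replicate 3 the lowest for 20 (41.7%, beside 25.4%). P5 replicate 1 was also the library with the low intron share, 60.1% of gene reads. Dividing-cell markers were also highest in P5 replicate 1 (1841 CPM) and lowest in P5 replicate 2 (764 CPM), and at 4 weeks highest in replicate 2 (1507 CPM) and lowest in replicate 3 (839 CPM). The 48 genes summed to 7207, 6139, 6318 and 6507 CPM in the P5 libraries and to 5856, 6789, 6055 and 6279 CPM in the 4-week libraries. The part of dividing cells and of the intron share in these differences was not tested.

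In the authors' deposited table the corrected p-value of their own test was 1.05e-06 for Gapdh, 3.77e-05 for Pfkfb3, 0.00106 for Slc2a3 and 0.0775 for Hk1. It was under 0.05 for 3 of the 46 members with a single row in the authors' deposited table.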

How the data were processed

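Raw counts deposited by the authors, per the file headers, give unique and total reads over exons, introns and exon junctions for 48835 rows in each of 8 libraries. Reads had been placed on mm10, per the submitters' processing notes. Of aligner, counter and annotation the sources used here give none. The Nextera XT libraries, named in the labels' protocols, do not mark strand. The p-value and corrected p-value of the authors' deposited table come from a test called EDGE per the file headers.

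Rows of 969 genes listed on several contigs were summed, which left 22050 genes with an mRNA model. Total exon reads entered the quasi-likelihood test of edgeR 4.0.16 under R 4.3.3 (TMM scaling, filterByExpr, age as the only term, all 8 libraries), with Benjamini-Hochberg adjustment over 12235 genes and a threshold of 0.05. The genes kept held 99.8% of exon reads, and the common biological coefficient of variation was 0.152. Standard errors were derived from the F statistic. Intervals cover counting error and the spread between libraries only, since the reads carry no molecular identifiers. Positions come from the RefSeq table of GRCm38.p6, pseudogene copies from BLAST 2.17.0 against GENCODE M21, and isozyme tests from Python 3.11.15 with scipy 1.17.1. The fits were tested on simulated data.

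The members, the lists and the tests were chosen with earlier results of these data known. Values in every library are given for called members, members with an unadjusted p under 0.05, members of the isozyme families (2 of them as ranges) and the most abundant of a step, and for other lists the called gene or genes and the one with the smallest p. A few genes of the other lists are not reported here by name. Pfkfb4 was named after its values were seen, and the exon and intron model, its leave-one-out fits and the unique junction reads were added after seeing the data. Alternatives were a replicate block, each library left out, other filters, DESeq2 1.42.0 and its size factors, limma-voom (limma 3.58.1), other read classes, a term for Y-linked reads, and a required log2 fold change of 1. Same-numbered libraries correlated by -0.236 to -0.0309 after removing the age means. These values show no pairing by number, but differences between single libraries can hide a pairing, so they cannot exclude one.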

Additional observations from a re-analysis of the deposited data

Results flagged for a closer look

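In 7 of 96 groups of 4 libraries (7.29%), 1 library stood far from the other 3 by Dixon's test, which chance alone does in about 1 in 20 groups. P5 replicate 1 was the high one for Gpi1 (658 CPM), Gapdh (45.3 CPM), Idh3g (139 CPM), Ogdh (320.2 CPM) and Mdh1 (202 CPM). P5 replicate 2 was the high one for Pcx (4.66 CPM), and 4-week replicate 2 for Slc16a1 (93.6 CPM).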

How the results depend on the processing

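The 4 calls among the members kept their direction in each alternative. With the replicate number as a block, all 4 were still called, the block gave 577 genes higher over the whole table, against 977 without it, and 1289 of its 1300 calls were shared. Leaving out 1 library gave 702 to 985 genes higher and 795 to 1069 lower, 1 to 5 members higher and 2 to 4 lower, and 4 to 7 members whose exon and intron differences differ. For isozyme shares such fits gave 0 calls, but a single share at the smallest p of 3 against 4 libraries cannot pass after adjustment. These fits therefore do not show that the shares are equal. Members called higher, main value 1, numbered 2 with a filter of 5 CPM, 2 with DESeq2 size factors, 4 with DESeq2, and 0 with unique exon, junction or unique junction reads. They numbered 4 higher and 5 lower with exon plus intron reads, 3 and 5 with intron reads, and 0 and 0 at a required log2 fold change of 1. Genes higher and lower over the whole table numbered 400 and 462 with junction reads, 361 and 443 with unique junction reads, 628 and 608 with a Y-linked term, 619 and 638 among the libraries with Y-linked reads, and 323 and 349 at a required log2 fold change of 1. Among the libraries with Y-linked reads 2 members had exon and intron differences that differ. Hk1 lost its call with the Y-linked term (adjusted p = 0.0679, edgeR). Fewer reads enter the junction and unique read fits, fewer libraries those that leave some out, and a required change is a stricter test; the cause of the other shifts was not tested. Depth limits Slc16a3, Pdk4 and Pcx most, and the least covered member had 201 exon reads over all libraries.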
